A study of Mus musculus with 6 samples.

Results

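Signalling by vascular endothelial growth factor (VEGF) runs through a small set of receptors, co-receptors and ligands, and DNA methylation was followed here across all of these genes that were listed for study: the receptor kinases *Flt1*, *Kdr* and *Flt4*, the neuropilins *Nrp1* and *Nrp2*, and the ligands *Vegfa*, *Vegfb*, *Vegfc* and *Pgf*. They are 9 of the 20665 protein-coding genes on chromosomes 1 to 19. Every 1 kb tile of the methylation table that overlaps one of their RefSeq spans, or the 20 kb on either side, was kept, which gave 936 of 1954255 tiles. Endothelial cells were sorted from mouse lung, and tagmentation-based whole-genome bisulfite sequencing, a method that tells methylated from unmethylated cytosines, was applied to their DNA. There were 3 samples of Dnmt3a knockout mice (KO) and 3 of wild-type mice (WT). Dnmt3a is a DNA methyltransferase that places methyl groups on DNA that did not carry them before, and its deletion was taken from the labels, since methylation levels do not measure it. The sources used here do not state strain, age, sex, the design of the KO allele or any Cre driver. Nor do the labels state that samples of one genotype are different animals, and the p-values below therefore describe the spread between samples, which may be technical. Levels are percent methylation, errors are SD over the samples of a group (n = 3 each), and differences are KO minus WT in percentage points. The depth is unknown, because the table holds no read counts.

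As background, VEGF ligands bind receptor tyrosine kinases on endothelial cells and drive the growth, permeability and survival of vessels. *Kdr* (VEGFR2) is the main signalling receptor for VEGF-A, *Flt1* (VEGFR1) binds VEGF-A tightly with weak kinase activity and can act as a decoy, and *Flt4* (VEGFR3) is the receptor for VEGF-C and is best known in lymphatic endothelium. Neuropilins bind both VEGF and semaphorins and act beside the kinases. CpG-rich starts of active genes usually lack methylation, whereas gene interiors usually carry it, with dips at regulatory elements.

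Windows of 250 bases before 4 of the starts illustrate the range of CpG content among these genes, with 1 receptor, 1 co-receptor and 2 ligands. Each is printed 5′ to 3′ on the strand of its gene, from the RefSeq promoter table of GRCm38.p6, with every CpG in capitals. The *Flt4* window is chr11:49609429-49609678 (plus strand), that of *Nrp2* is chr1:62703067-62703316 (plus strand), that of *Vegfa* is chr17:46032378-46032627 (minus strand), and the window of the second listed start of *Pgf* is chr12:85175983-85176232 (minus strand).
Flt4: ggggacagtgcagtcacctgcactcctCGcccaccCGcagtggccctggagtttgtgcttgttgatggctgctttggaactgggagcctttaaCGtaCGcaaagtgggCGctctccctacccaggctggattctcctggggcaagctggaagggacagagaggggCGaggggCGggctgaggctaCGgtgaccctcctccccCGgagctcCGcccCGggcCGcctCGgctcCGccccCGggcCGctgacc
Nrp2: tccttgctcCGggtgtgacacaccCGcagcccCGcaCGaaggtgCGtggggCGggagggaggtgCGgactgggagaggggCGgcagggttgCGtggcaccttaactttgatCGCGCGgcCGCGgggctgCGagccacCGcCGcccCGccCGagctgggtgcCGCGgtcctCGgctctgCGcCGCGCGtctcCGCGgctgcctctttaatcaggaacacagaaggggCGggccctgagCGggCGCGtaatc
Vegfa: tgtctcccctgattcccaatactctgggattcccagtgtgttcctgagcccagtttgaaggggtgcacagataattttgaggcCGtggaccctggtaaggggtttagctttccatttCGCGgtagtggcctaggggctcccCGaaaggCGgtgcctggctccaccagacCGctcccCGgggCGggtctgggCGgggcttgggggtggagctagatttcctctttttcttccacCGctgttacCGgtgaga
Pgf second start: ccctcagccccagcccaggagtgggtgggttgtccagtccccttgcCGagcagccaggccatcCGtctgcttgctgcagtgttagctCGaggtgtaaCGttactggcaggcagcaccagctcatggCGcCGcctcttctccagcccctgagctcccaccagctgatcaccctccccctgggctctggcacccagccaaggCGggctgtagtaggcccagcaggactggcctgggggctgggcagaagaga
These windows hold 16 CpGs in *Flt4*, 32 in *Nrp2*, 11 in *Vegfa* and 7 before the second start of *Pgf*. Over the 300 bases that the table gives for each start, *Nrp2* had 37 CpGs, *Vegfc* 35, *Vegfb* 31, *Flt1* 29, *Flt4* 26, the first start of *Pgf* 23, *Kdr* 19, *Vegfa* 16 and *Nrp1* 14, against a median of 7 over all 32851 windows of the table. The second start of *Vegfa* had 10 CpGs and that of *Pgf* had 7. Whether a start was free of methylation in these cells is given with each gene below.

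The sorted cells were checked against start levels of marker genes, taken as the mean of the tiles that overlap 1000 bp on either side of the start. The 8 endothelial markers measured, of 11 listed, had start levels of 3.79 to 24.0% in KO and 5.68 to 25.5% in WT. The 5 leukocyte markers measured, of 8, ran from 21.7 to 72.8% in KO and between 29.8 and 73.5% in WT. The 5 epithelial markers measured, of 7, lay between 1.24 and 39.6% in KO and between 1.66 and 60.0% in WT, and the 4 mesenchymal ones, of 7, between 0.759 and 47.9% in KO and between 1.39 and 60.0% in WT, with the starts of *Nkx2-1* and *Pdgfra* lowest in their lists in both groups. The 2 erythroid markers measured, of 4, had 39.7 and 67.1% in KO and 43.8 and 66.9% in WT. In DNA from many cells, a tile methylated in part of the cells cannot be told apart from one methylated in part in every cell.

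Across the 936 tiles, methylation was lower in KO. The tile holding the start was close to unmethylated in both groups in 8 of the 9 genes. Tiles next to it were called lower in part of the genes, in 6 of 9 tiles 1 kb upstream and in 4 of 9 tiles 1 kb downstream, and in *Nrp1* neither was. Body tiles, more than 2000 bp inside the gene, were called in 8 of the 9 genes, and neither of the 2 body tiles of *Vegfb* was. The mean level over the tiles was 53.6, 53.1 and 54.2% in the KO samples, against 66.3, 66.2 and 66.2% in the WT samples. No KO sample reached the level of any WT sample. The difference was -12.6 points (two-sided exact permutation p = 0.10, the smallest that 3 against 3 samples allow), against -5.36 points over all tiles of the table. Of the 936 tiles, 440 were lower in KO at an adjusted p under 0.05 and at least 10 points (limma over all 1954255 tiles, Benjamini-Hochberg), which is 47.0%, against 16.2% of all tiles and 19.6% of tiles within 20 kb of any protein-coding gene. After centring each sample on its median, 236 tiles (25.2%) were lower, against 6.64% of all tiles, and after scaling to one mean level 242 (25.9%), against 6.58%. The mean difference was then -7.70 and -7.76 points. None was higher by the same limma test, whose share over all tiles was 0.0796%, and none was higher at an unadjusted p under 0.05 or with limma on the logit scale, while 4 (0.427%) were higher after scaling samples to one mean level, against 1.57% of all tiles in that setting. The median tile difference was -10.2 points, against -4.05 points over all tiles. Every KO sample lay below every WT sample in 599 tiles, against 31.6% of all tiles, and the opposite held in 1.

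The number of tiles at both ends of the scale moved with the genotype. Tiles under 10% numbered 70, 79 and 77 in the KO samples, against 44, 40 and 43 in the WT samples. Tiles at 80% or more numbered 126, 109 and 124 in the KO samples, against 312, 326 and 311 in the WT samples. Neither count overlapped between the groups (two-sided exact permutation p = 0.10 for each, the smallest possible). The same counts were not made over all tiles of the table, where the mean difference was -5.36 points. Starting from the WT mean, tiles at 50 to 80% were called lower in 232 of 435 cases and tiles at 10 to 50% in 80 of 144. The shares were 53.3 and 55.6%, against 13.7 and 26.8% of all tiles at those levels. Among tiles at 80% or more, 128 of 316 were lower, or 40.5%, against 20.7% of all such tiles. The 41 tiles under 10% in WT had no room for a fall of 10 points. In KO, 30 tiles were under 10% that stood at 10 to 50% in WT.

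**Figure D1:**
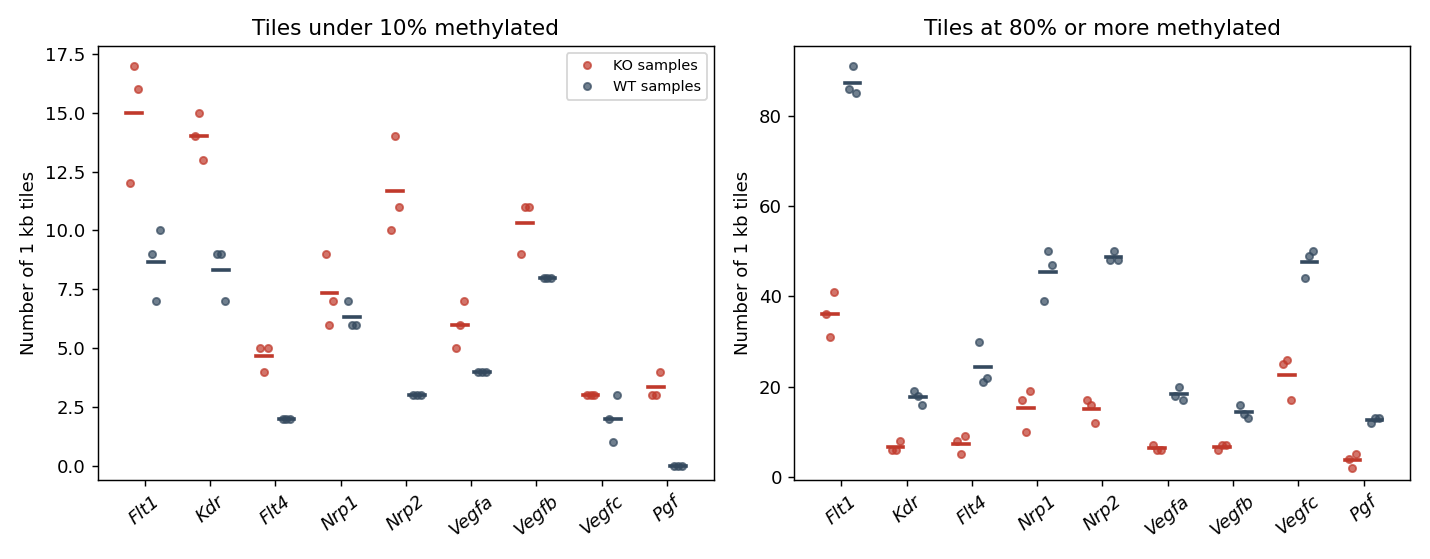
Number of 1 kb tiles under 10% (left panel) and at 80% or more (right panel) in each gene and sample, with KO and WT samples as points (n = 3 each) and the mean as a bar. In *Nrp2*, tiles under 10% numbered 10, 14 and 11 in the KO samples and 3 in every WT sample, whereas in *Nrp1* and *Vegfc* the groups overlapped, and tiles at 80% or more were fewer in KO than in WT samples in all 9 genes.

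*Flt1* (chromosome 5, 147561604 to 147726438, minus strand) showed the largest difference of any tile in the set, directly upstream of an unmethylated start. The tile that holds the start had 0.497, 0.307 and 0.265% in the KO samples and 1.51, 1.96 and 2.59% in the WT samples. The next tile upstream (147727001 to 147728000), centred at -1489 bp, had 4.11, 5.75 and 9.11% in the KO samples, against 74.2, 74.0 and 71.6% in the WT samples. At the start both groups were near 0, and 1 tile further the groups lay far apart, with KO samples close to the level of the start itself. That difference was -66.9 points (SE 3.51, limma adjusted p = 1.41e-10). The run of tiles under 10% around the start was 7 tiles long in each KO sample and 6 in each WT sample.

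Inside *Flt1*, 85 of 162 body tiles were lower, where body tiles lie wholly in the span and more than 2000 bp from the start. Because the gene table has no exons, these tiles hold introns and exons together. The tile centred at 9510 bp had 18.9, 6.60 and 19.8% in the KO samples, against 70.5, 67.0 and 66.4% in the WT samples (difference -52.9 points, limma adjusted p = 1.22e-08). A pair of adjacent tiles far into the gene, centred at 123510 and 124510 bp, averaged 18.1 and 12.4% in KO, against 67.7 and 63.6% in WT. Body differences were uneven: from a tile at 3.88 points above WT, not called, to -52.9 points, with 12 tiles at a loss of 30 points or more. The longest run of called tiles, 13 tiles over 14 kb (147631001 to 147645000), averaged 41.3% ± 1.22 in KO and 64.1% ± 1.61 in WT. The body as a whole had 56.1, 53.9 and 56.1% in the KO samples, against 69.5, 69.9 and 69.7% in the WT samples, and the groups did not overlap.

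*Kdr* (chromosome 5, 75932827 to 75979072, minus strand), the main VEGF-A receptor, kept its start unmethylated in both groups and had the lowest body level of the 8 genes with a body value. The tile at the start had 3.75, 0.294 and 0.377% in the KO samples and 0.755, 0.995 and 2.49% in the WT samples, and the groups overlapped. Upstream, the tile centred at -1045 bp averaged 10.6% ± 0.761 in KO and 21.9% ± 3.39 in WT, and the tile at -2045 bp had 15.3, 6.09 and 9.62% in the KO samples, against 46.7, 51.7 and 55.2% in the WT samples. Both were lower in KO, and the second differed more (-40.9 points, limma adjusted p = 1.87e-08). They open a run of 10 called tiles over 10 kb upstream (75979001 to 75989000), with 52.2% ± 2.56 in KO and 72.5% ± 0.668 in WT. The tile with the largest difference lay beyond the 3′ end of *Kdr* (75920001 to 75921000), with 30.1, 29.3 and 33.0% in the KO samples, against 73.8, 76.5 and 69.4% in the WT samples.

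The body of *Kdr* had 36.1, 36.2 and 40.2% in the KO samples, against 45.4, 48.2 and 48.5% in the WT samples. It was lower in KO (difference -9.87 points, SE 1.52, limma adjusted p = 0.000751), and 19 of 43 body tiles were called. Body tiles under 50% numbered 29 of 43 in KO and 24 of 43 in WT. The largest body difference was -25.7 points (75939001 to 75940000), with 27.9% ± 4.10 in KO and 53.7% ± 0.981 in WT.

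*Flt4* (chromosome 11, 49609679 to 49652739, plus strand), the VEGF-C receptor, widened its unmethylated start region in KO on the gene side. The tile at the start had 1.99, 1.05 and 0.390% in the KO samples and 0.803, 1.70 and 1.50% in the WT samples. Further in, the tile centred at 1821 bp had 0.227, 2.54 and 3.98% in the KO samples, against 20.3, 25.5 and 29.3% in the WT samples. The following tile, at 2821 bp, had 0.806, 1.32 and 1.36% in the KO samples, against 28.8, 36.5 and 22.9% in the WT samples. Both of these were called, while the tile at the start did not separate the groups. Counted in adjacent tiles under 10%, the region spanned 4, 4 and 5 tiles in the KO samples, against 2 in every WT sample.

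Deeper in *Flt4* the tile at 49634001 to 49635000 had 16.97, 17.1 and 15.7% in the KO samples, against 74.8, 78.4 and 75.6% in the WT samples (difference -59.7 points, SE 3.82, limma adjusted p = 1.17e-09). The KO samples lay close together there, far from any WT sample. Of 39 body tiles 26 were lower in KO, and 15 of them formed a run of 16 kb (49615001 to 49631000) with 41.9% ± 1.47 in KO and 60.1% ± 1.91 in WT. The body level was 44.8, 42.9 and 45.5% in the KO samples, against 62.7, 62.4 and 64.9% in the WT samples, a difference of -19.0 points (limma adjusted p = 1.18e-05).

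**Figure D2:**
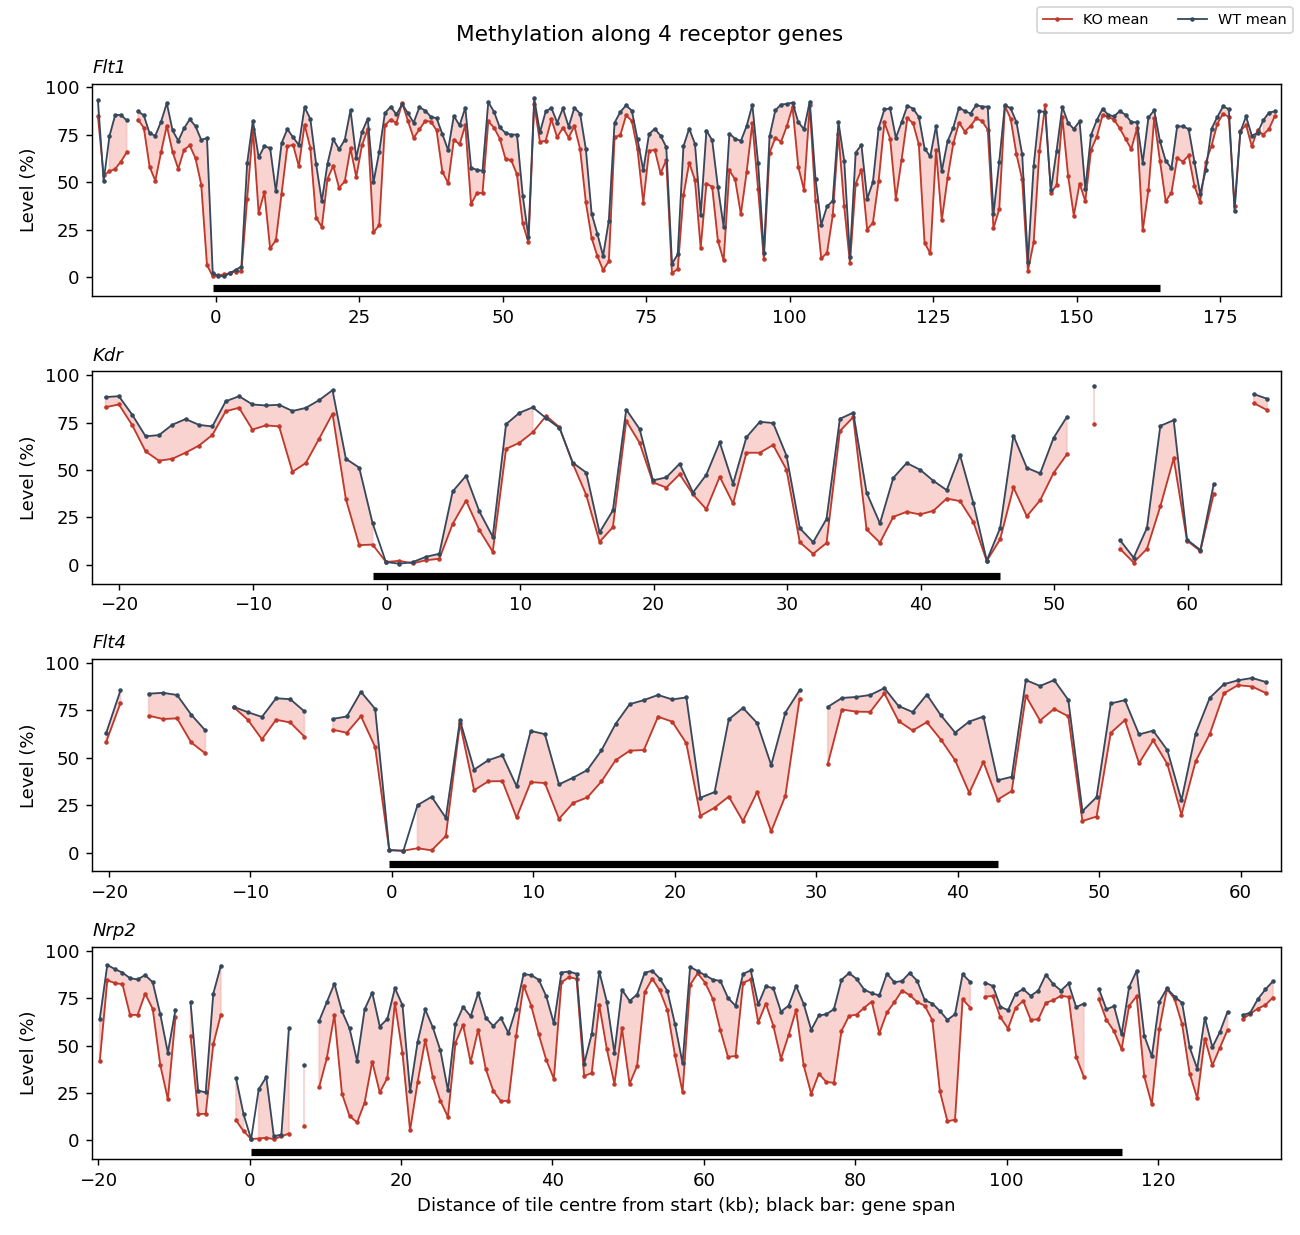
Mean methylation level (%) of KO and WT samples in each 1 kb tile along *Flt1*, *Kdr*, *Flt4* and *Nrp2*, by distance of the tile centre from the start (kb), with the gene span as a black bar and the gap between the means shaded. The means meet near 0 at each start and part on its flanks and at dips inside the genes, as in the *Flt4* tile with 16.6% in KO and 76.3% in WT.

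The neuropilins differed from each other. *Nrp2* (chromosome 1, 62703317 to 62818692, plus strand), which pairs with *Flt4* in VEGF-C signalling, had the highest share of called tiles, 92 of 149, and *Nrp1* (chromosome 8, 128358591 to 128505476, plus strand), a VEGF-A co-receptor, had 51 of 148. In *Nrp2* the tile at the start had 0.540, 1.26 and 0.324% in the KO samples and 0.565, 0.769 and 0.276% in the WT samples. The next tile, centred at 1183 bp, had 0.860, 0.336 and 1.56% in the KO samples, against 30.8, 28.2 and 21.6% in the WT samples. Methylation present beside the start in WT was close to 0 in every KO sample. The tile at 5183 bp (62708001 to 62709000) had 2.01, 4.68 and 4.03% in the KO samples, against 59.7, 60.5 and 57.6% in the WT samples (difference -55.7 points, SE 2.89, limma adjusted p = 1.26e-10).

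Around the *Nrp2* start, adjacent tiles under 10% numbered 7, 8 and 7 in the KO samples, against 1 in every WT sample. Neighbouring tiles in this stretch averaged 0.919% and 1.34% in KO, against 26.9% and 33.3% in WT, where they broke it up. A run of 19 called tiles over 22 kb (62708001 to 62730000) averaged 27.2% ± 1.04 in KO and 58.4% ± 2.06 in WT. It was the longest run of called tiles among the 9 genes. A second place of strong loss lay 92183 and 93183 bp into the gene, where adjacent tiles averaged 9.97 and 10.9% in KO, against 63.5 and 66.5% in WT. Over the whole body, 47 of 108 tiles were under 50% in KO, against 10 in WT, and the body level was 52.0, 51.8 and 51.6% in the KO samples, against 72.0, 71.1 and 71.2% in the WT samples (difference -19.6 points, limma adjusted p = 6.64e-06).

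*Nrp1* had a broad region under 10% around its start that was the same length in both groups, with 7, 6 and 6 tiles in the KO samples and 7, 6 and 6 in the WT samples. Its start level over 3 tiles was 2.46, 0.714 and 0.343% in the KO samples and 0.779, 2.19 and 0.318% in the WT samples, and the groups overlapped. The edge of this region upstream did lose methylation: the tile centred at -2572 bp had 12.7, 15.8 and 12.02% in the KO samples, against 39.0, 33.3 and 42.2% in the WT samples (difference -24.6 points, limma adjusted p = 1.73e-06). Within the gene 37 of 117 tiles were lower, the largest difference being -21.2 points, and no body tile lost 30 points. The body level was 55.2, 55.7 and 57.5% in the KO samples, against 61.6, 65.8 and 65.7% in the WT samples, a difference of -8.20 points (SE 1.36, limma adjusted p = 0.00111). Its longest run of called tiles, 7 tiles over 8 kb (128517001 to 128525000), lay beyond the 3′ end, with 53.0% ± 0.254 in KO and 70.4% ± 4.09 in WT.

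**Figure D3:**
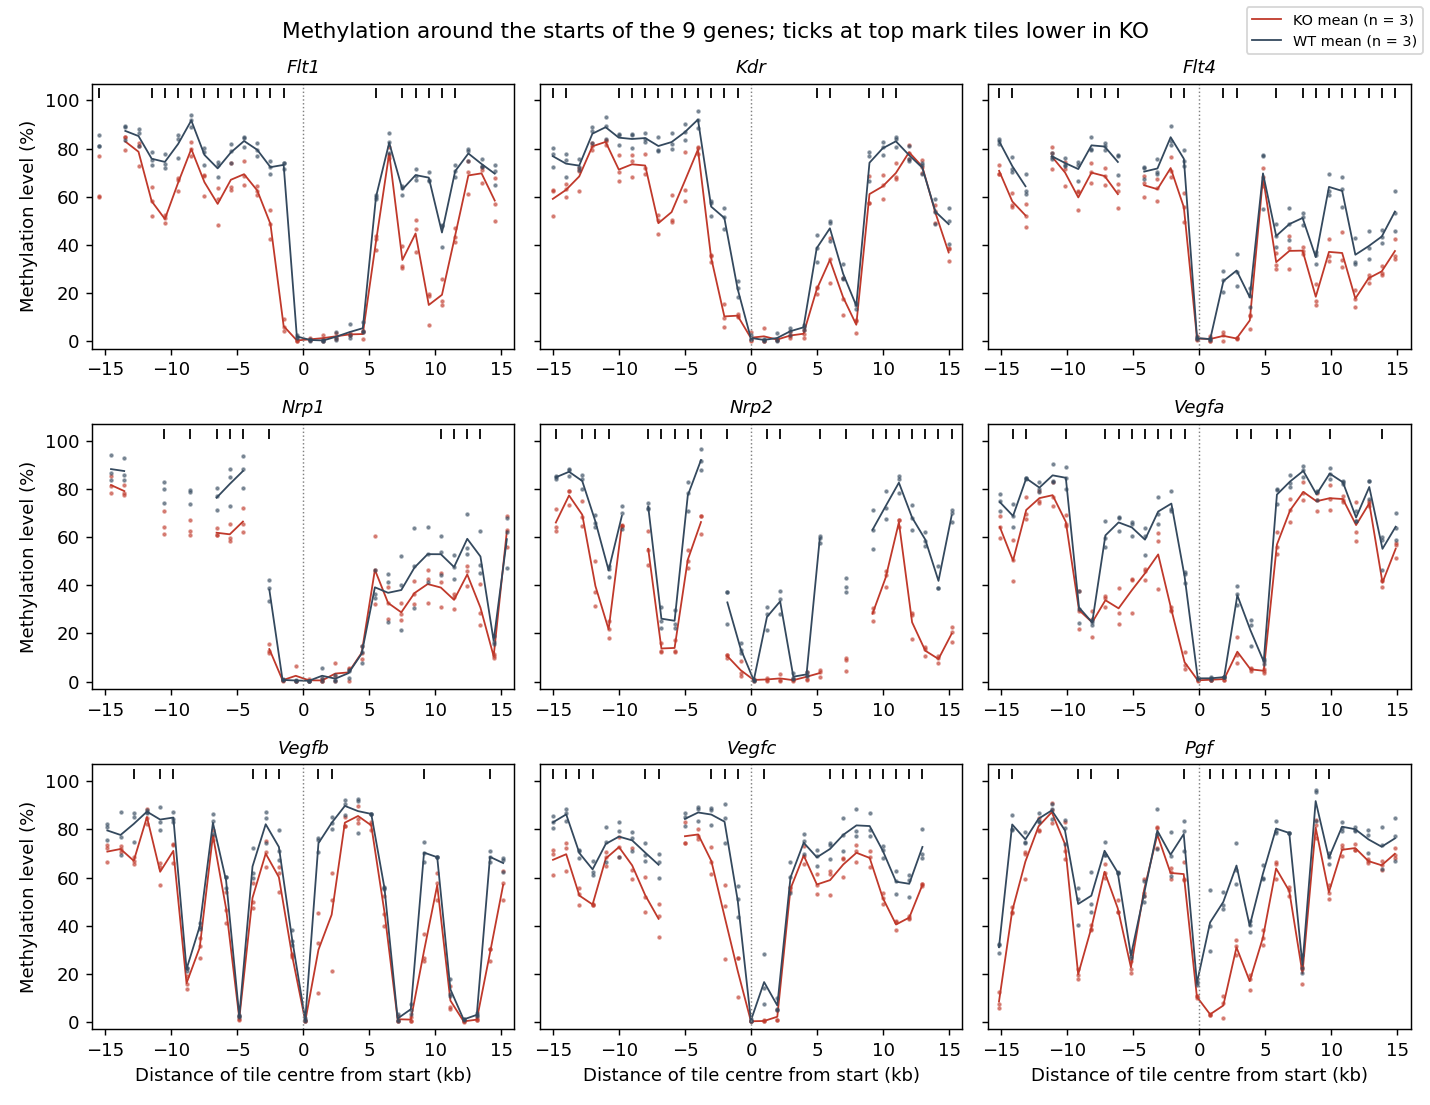
Methylation level (%) of each sample (points) and the group mean (lines, KO and WT, n = 3 each) in tiles within 15 kb of the start of each gene, by distance of the tile centre from the start (kb), with ticks above tiles that were lower in KO. The start tiles of all genes but *Pgf* lie near 0 in both groups, the *Flt1* tile at -1489 bp stands at 6.32% in KO and 73.3% in WT, and the *Nrp2* tile at 5183 bp at 3.57% in KO and 59.3% in WT.

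Among the ligands, *Vegfa* (chromosome 17, 46016993 to 46032377, minus strand), the central angiogenic factor, lost methylation over a block upstream of its start. The start tile had 0.417, 0.749 and 0.494% in the KO samples and 1.46, 1.07 and 1.58% in the WT samples. The first tile upstream, at -1123 bp, had 12.2, 6.76 and 5.28% in the KO samples, against 45.6, 40.9 and 44.8% in the WT samples. The second, at -2123 bp (46034001 to 46035000), had 29.7, 29.2 and 30.8% in the KO samples, against 79.1, 71.0 and 71.7% in the WT samples. Both were called, with differences of -35.7 and -44.0 points, and the tile at -2123 bp carried the largest difference of the gene (limma adjusted p = 1.85e-07). Together with the tiles beyond them they made a run of 7 called tiles over 7 kb (46033001 to 46040000), with 34.0% ± 2.80 in KO and 62.6% ± 3.08 in WT. The body had 53.3, 53.1 and 53.1% in the KO samples, against 65.0, 63.6 and 62.9% in the WT samples, and 6 of 13 body tiles were lower. A second listed start, inside the gene, was methylated in both groups, with 75.7, 66.4 and 71.4% in the KO samples and 85.9, 80.9 and 82.6% in the WT samples, and was called lower (difference -11.99 points, limma adjusted p = 0.0115).

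*Vegfb* (chromosome 19, 6982472 to 6987651, minus strand), a ligand of *Flt1*, sits in a gene-dense stretch, and 40 of its 46 tiles overlap 1 of 8 neighbouring genes. The start tile, which also overlaps *Dnajc4*, had 0.265, 0.727 and 0.237% in the KO samples and 0.416, 0.847 and 1.62% in the WT samples. The tile at 1150 bp (6986001 to 6987000), within *Vegfb* alone, had 12.2, 45.2 and 32.6% in the KO samples, against 70.7, 76.3 and 75.7% in the WT samples. The KO samples spread widely there and still all lay below WT (difference -44.2 points, SE 5.86, limma adjusted p = 1.58e-05). With only 2 body tiles, at 84.2% in KO and 88.7% in WT on average and neither called, *Vegfb* has no body value in the comparisons below. The longest run of called tiles in its window lay outside the gene, with 3 called tiles at 13.5% ± 4.01 in KO and 36.7% ± 1.01 in WT.

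*Vegfc* (chromosome 8, 54077532 to 54186454, plus strand), the lymphangiogenic ligand of *Flt4*, had the highest body level of the 8 genes with a body value in both groups. Its start tile had 0.408, 0.257 and 0.256% in the KO samples and 0.236, 1.33 and 0.398% in the WT samples. All 3 tiles within 1000 bp of the start, this one included, overlap the neighbouring gene *Gm33153*. The tile centred at 968 bp had 0.297, 0.702 and 0.285% in the KO samples, against 28.0, 14.3 and 7.46% in the WT samples. All KO samples were near 0 where WT samples ranged widely. Upstream at -2031 bp the tile had 48.3, 26.2 and 57.1% in the KO samples, against 90.6, 74.4 and 84.6% in the WT samples (difference -39.3 points, limma adjusted p = 6.94e-05). The body had 65.0, 65.5 and 65.3% in the KO samples, against 75.0, 75.0 and 73.6% in the WT samples, with 29 of 81 tiles lower. One body tile (54163001 to 54164000) went beyond the rest, with 17.1, 15.0 and 24.1% in the KO samples, against 57.3, 54.1 and 51.1% in the WT samples (limma adjusted p = 4.19e-07).

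*Pgf* (chromosome 12, 85166637 to 85177785, minus strand), which encodes placental growth factor, a ligand of *Flt1*, was the exception at the start. Its first start lay in a tile with 10.6, 10.9 and 9.81% in the KO samples and 15.2, 16.4 and 16.9% in the WT samples, which is -5.71 points (limma adjusted p = 0.0160), under the minimum of 10 points. The second listed start, whose window of 7 CpGs is printed above, lay in a tile with 1.84, 8.08 and 10.7% in the KO samples, against 54.0, 48.8 and 46.9% in the WT samples. It was lower in KO (difference -43.0 points, limma adjusted p = 3.75e-09), and the groups were far apart. Between the pair of starts, the tile at 812 bp had 3.10, 3.47 and 3.01% in the KO samples, against 54.7, 29.6 and 39.8% in the WT samples. In the body 7 of 8 tiles were lower, and the level was 43.3, 45.4 and 44.8% in the KO samples, against 67.0, 60.7 and 63.2% in the WT samples (difference -19.1 points, limma adjusted p = 4.45e-05). The largest difference of the window lay upstream (85197001 to 85198000), with 30.5, 26.4 and 20.02% in the KO samples, against 72.8, 70.8 and 73.2% in the WT samples. The longest run of called tiles, 10 tiles over 13 kb beyond the 3′ end, averaged 47.0% ± 3.05 in KO and 64.6% ± 3.72 in WT, and its far end lies in the neighbouring gene *Rps6kl1*.

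Averaged over tiles within 1000 bp of the start, which takes in the neighbours of the start tile, 6 of the 9 genes were lower in KO at an adjusted p under 0.05 and at least 10 points, against 16.6% of 16078 gene starts, and no start was higher, against 0.0435% of all starts. These included *Flt1* with 2.50% ± 0.997 in KO and 25.3% ± 0.405 in WT, *Pgf* with 25.0% ± 1.16 in KO and 45.2% ± 3.97 in WT, and *Vegfb* with 19.4% ± 5.43 in KO and 36.6% ± 2.12 in WT. The others were *Vegfc* with 7.31% ± 3.01 in KO and 22.5% ± 4.90 in WT, *Vegfa* with 3.15% ± 1.21 in KO and 15.5% ± 0.843 in WT, and *Nrp2* with 2.15% ± 1.08 in KO and 13.7% ± 0.966 in WT. *Flt4* averaged 19.3% ± 1.56 in KO and 26.0% ± 1.09 in WT, and its difference of -6.75 points (limma adjusted p = 0.00325) was under the 10-point minimum. *Kdr*, at 4.73% ± 1.51 in KO and 7.96% ± 1.28 in WT (difference -3.23 points, limma adjusted p = 0.0228), was under it too. For *Nrp1* the means were 1.17% ± 1.13 in KO and 1.10% ± 0.978 in WT. With WT levels under 10%, the starts of *Kdr* and *Nrp1* had no room for a fall of 10 points and could not have been called. All 3 start tiles of *Vegfc* and 2 of the 3 of *Vegfb* overlap a neighbouring gene. The median start difference was -12.4 points over the 9 genes and -4.43 points over all starts. For marker genes of other cell types, the median start difference was -11.3 points over the epithelial markers (3 of 5 lower), -11.1 points over the mesenchymal (3 of 4), -5.18 points over the leukocyte (1 of 5) and -1.95 points over the erythroid (0 of 2, also at an unadjusted p under 0.05). Over the 8 endothelial markers it was -4.58 points, with 0 of 8 lower and 5 at an unadjusted p under 0.05 (limma). The part of other cells in the start differences was not tested. With the window at 500 bp, 1 of the 9 starts was called, against 12.8% of all starts, and with 2000 bp 8 were, against 21.5%. At 500 bp the WT levels of *Flt1*, *Kdr*, *Flt4*, *Nrp1*, *Nrp2*, *Vegfa* and *Vegfc* lay between 0.421 and 8.62%. These starts had no room for a fall of 10 points, so that the count at 500 bp says nothing about them. Centring each sample on its median left *Nrp2* (-6.68 points) and *Vegfa* (-7.47 points) under the minimum.

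By size of the start difference, *Flt1* came first, followed by *Pgf*, *Vegfb*, *Vegfc*, *Vegfa* and *Nrp2*, and no gene among these differed from the next by more than 2 combined SE. The steps to *Flt4*, to *Kdr* and to *Nrp1* were each larger than that. The order of start levels in WT ran from *Pgf* at the top through *Vegfb*, *Flt4*, *Flt1*, *Vegfc*, *Vegfa*, *Nrp2* and *Kdr* down to *Nrp1*, and only *Flt4* with *Flt1* and *Flt1* with *Vegfc* overlapped their next neighbour sample by sample. In KO, every neighbour in the order overlapped except *Flt4* with *Vegfc*.

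All 8 genes with a body value were lower in KO at an adjusted p under 0.05 and at least 5 points, against 51.7% of 12138 gene bodies lower and 0.0247% higher, with a median difference of -12.5 points over the 8 genes and -5.23 points over all bodies. *Nrp2*, *Pgf* and *Flt4* formed the top of the order, within 2 combined SE of each other, at -19.6, -19.1 and -19.0 points. *Flt1* followed alone at -14.4 points (SE 0.888), with 55.4% ± 1.30 in KO and 69.7% ± 0.211 in WT. *Vegfa* at -10.6, *Kdr* at -9.87, *Vegfc* at -9.27 and *Nrp1* at -8.20 points did not differ from their neighbours by more than that. When each sample was centred on its own median, the bodies of *Kdr*, *Nrp1* and *Vegfc* were no longer called, at -4.98, -3.31 and -4.38 points.

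**Figure D4:**
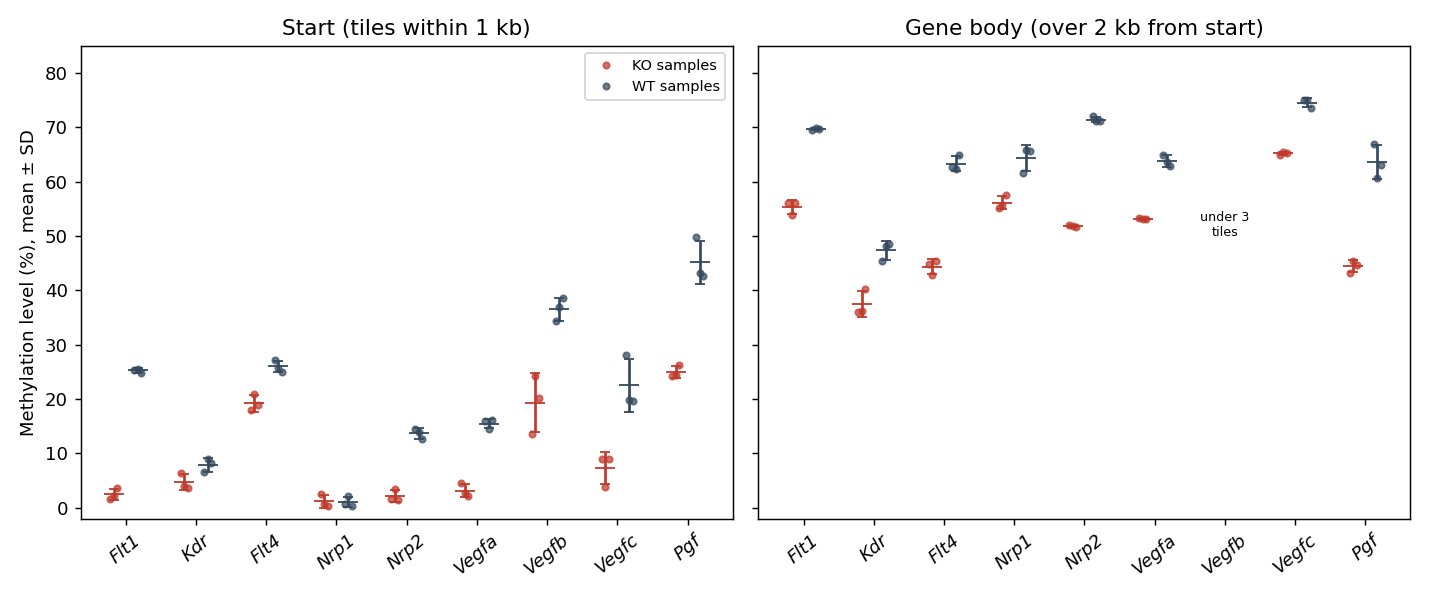
Start level (tiles within 1000 bp of the start) and body level, in percent, of each gene in every KO and WT sample (points), with horizontal bars at the mean and error bars of 1 SD (n = 3 each). Body levels lie lower in KO for all 8 genes with a body value, such as *Nrp2* with 51.8% in KO and 71.4% in WT, whereas the starts of *Nrp1* lie at 1.17% in KO and 1.10% in WT.

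Whether the start and the interior of a gene changed by unequal amounts was tested on the start minus body level of each sample (limma over 12071 genes, Benjamini-Hochberg). The start lost less than the body in *Flt4*, by 12.2 points (SE 2.27, adjusted p = 0.00301). Its WT start level of 26.0% exceeded the body loss, but this level is a mean of 3 unlike tiles. The 2 tiles within 500 bp averaged 1.05% in KO and 1.12% in WT and had no room for such a loss. The call therefore cannot tell a smaller loss from a lack of room. The same call was made for *Nrp1* (8.28 points, SE 1.73, adjusted p = 0.00582), *Nrp2* (8.05 points, SE 1.50, adjusted p = 0.00295) and *Kdr* (6.64 points, SE 2.18, adjusted p = 0.0477), against 14.2% of all genes. In these 3 genes the WT start level, at 1.10, 13.7 and 7.96%, was smaller than the body loss, so that the start could not have lost as much as the body, and the calls say nothing beyond that. In *Kdr* the call was lost without any of 5 of the 6 samples, with adjusted p = 0.142 without KO replicate 1, 0.112 without KO replicate 2, and 0.0947, 0.0990 and 0.128 without WT replicates 1, 2 and 3 (limma). The start lost more than the body in *Flt1* (difference of differences -8.41 points, SE 1.60, adjusted p = 0.00347), 1 of 8 genes against 8.96%. That direction rests on the strongly changed tile beside the *Flt1* start. With tiles within 500 bp only, which leaves that tile out, the value was 13.7 points, at a start level of 0.586% in KO and 1.29% in WT that left no room for a loss as large as that of the body. The contrast was not called for *Vegfa* (-1.74 points), *Vegfc* (-5.97 points) or *Pgf* (-1.05 points). With the window at 2000 bp, *Vegfa* (-5.77 points, adjusted p = 0.0203) and *Vegfc* (-8.67 points, adjusted p = 0.0208) were called as starts that lost more, while *Nrp2* (1.81 points, adjusted p = 0.465), *Flt1* (-3.82 points, adjusted p = 0.116) and *Kdr* (-0.371 points) were not called (limma). Averaged over the 8 genes, start minus body was -42.2, -42.8 and -43.6 points in the KO samples, against -43.7, -45.3 and -46.3 points in the WT samples, so that the groups did not overlap (difference 2.25 points, two-sided exact permutation p = 0.10, the smallest possible). The average includes *Kdr*, *Nrp1* and *Nrp2*, whose starts had no room for the body loss, and it cannot tell a smaller loss from that lack of room. After scaling samples to one mean level that mean difference was -1.30 points, the calls of *Kdr* (3.74 points), *Nrp1* (3.52 points) and *Nrp2* (3.71 points) were lost, and *Vegfa* (-5.73 points) and *Vegfc* (-10.4 points) were called as starts that lost more.

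Tiles were also averaged by distance from the start, without a test. In the bin of tiles centred within 500 bp of the start, the 9 genes averaged 1.77% in KO and 2.76% in WT (-0.983 points), and none of the 9 tiles was lower, against 9.11% of all such tiles. Of the 9 tiles, 8 stood under 10% in WT and could not have been called, whereas 44.4% of all such tiles stood at 10% or more. In the bin 1 kb upstream the genes averaged 22.0% in KO and 43.5% in WT, and 6 of 9 tiles were lower, against 28.2% of all tiles at that distance. The bin 2 kb upstream averaged 37.6% in KO and 60.1% in WT, with 7 of 9 tiles lower, against 29.9%. Downstream of the start, the bin at 10 kb, which lies beyond the end of the short *Vegfb* gene and inside the other 8, stood at 48.6% in KO and 70.2% in WT, with 8 of 9 tiles lower, against 20.4%. This was the downstream bin with the largest mean difference. At 4 kb the 9 genes averaged 22.8% in KO and 29.5% in WT, with 2 of 9 tiles lower, against 23.4% of all tiles. There the mean difference was -6.70 points in the VEGF genes and -7.21 points over all genes, which averaged 69.9% in WT. At 1 kb upstream it was -21.5 points in the VEGF genes and -8.06 points over all genes, and at 10 kb -21.7 and -6.56 points. At 1 kb downstream it was -13.9 points in the VEGF genes, with 4 of 9 tiles lower, against 19.3%. The WT mean at 1 kb downstream was 18.3% in the VEGF genes and 39.3% over all genes. The room for a loss was therefore unlike in that bin and at 4 kb.

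**Figure D5:**
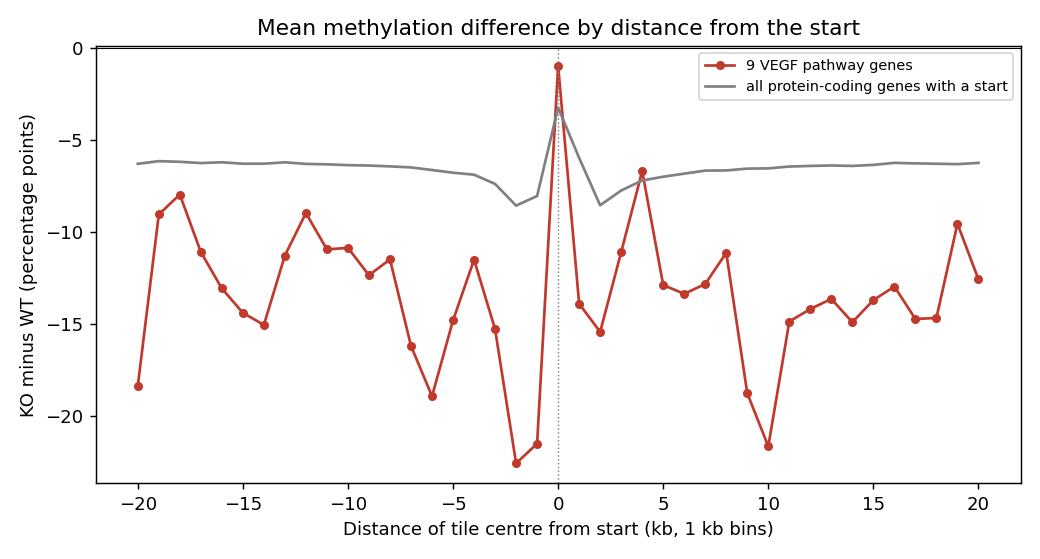
Mean KO minus WT difference in points by distance of the tile centre from the start (kb, 1 kb bins), for the 9 VEGF genes and for all genes with a listed start. The VEGF line reaches -0.983 points at the start and -21.5 points 1 kb upstream, where all genes average -3.25 and -8.06 points.

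By position, 281 of 573 body tiles were lower in KO, 90 of 158 upstream tiles, 54 of 160 downstream tiles, 10 of 27 tiles within 1000 bp of a start and 5 of 18 others at the edges. Shares for these position classes were not computed over all genes. Of all tiles 16.2% were lower, and of tiles within 20 kb of a protein-coding gene 19.6%. None of the 10 called start tiles holds the first start of its gene. The tiles that overlap another protein-coding gene numbered 68, and 421 of the 440 called tiles lay outside them. Of the 14 called tiles of *Vegfb*, only 2 lay outside such tiles. Per gene, the tiles called lower were 105 of 205 for *Flt1*, 42 of 84 for *Kdr*, 45 of 79 for *Flt4*, 22 of 57 for *Vegfa*, 14 of 46 for *Vegfb*, 42 of 116 for *Vegfc* and 27 of 52 for *Pgf*. Some tiles crossed most of the scale: of the 13 tiles that stood under 20% in KO and at 50% or higher in WT, 5 were in *Flt1*, 5 in *Nrp2*, 1 in *Flt4*, 1 in *Kdr* and 1 in *Vegfc*. Such tiles were not counted over the whole table.

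Other genes of the pathway, listed by role and with earlier results of these data known, are given beside the shares over all genes, 16.6% of starts and 51.7% of bodies lower. None of them was higher at a start or body, also at an unadjusted p under 0.05 in the same limma fits. Of 13 measured co-receptors, ligands and binders, such as plexins and class 3 semaphorins, 4 starts (30.8%) were lower, and 7 of 12 bodies (58.3%). Of the transducers and effectors, 5 of 27 starts (18.5%) and 21 of 25 bodies (84.0%) were lower, and of the regulators of ligand or receptor level 5 of 13 starts (38.5%) and 9 of 11 bodies (81.8%). The median start differences of these lists were -6.58, -4.94 and -5.99 points, and the median body differences -6.09, -7.22 and -8.73 points, set beside -4.43 and -5.23 points over all genes.

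The smallest p-values at starts belonged to *Src*, a kinase that acts below *Kdr*, with 18.4% ± 1.36 in KO and 54.8% ± 1.28 in WT, to *Nr2f2*, a nuclear receptor of venous identity, with 1.63% ± 0.924 in KO and 31.3% ± 3.45 in WT, and to *Foxc1*, a forkhead factor of vessel development, with 0.961% ± 0.291 in KO and 12.1% ± 0.771 in WT. At bodies they belonged to *Nr2f2*, with 0.623% ± 0.144 in KO and 34.3% ± 2.08 in WT, to *Shb*, an adaptor that binds activated *Kdr*, with 52.7% ± 0.326 in KO and 72.9% ± 1.25 in WT, and to *Egln3*, a prolyl hydroxylase acting on hypoxia-inducible factors, with 44.5% ± 0.977 in KO and 67.7% ± 1.31 in WT. All 6 were lower with no overlap between the groups, which follows from their choice by smallest p and is no further result.

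Genes with start and body levels most like those of a receptor were found by the Euclidean distance over 12 values, the start and body level in each of the 6 samples, among 12071 genes. Nearest to *Flt1* were *Chst15* (distance 9.11 points), with a start of 4.19% in KO and 27.5% in WT and a body of 52.8% in KO and 71.0% in WT, and *Rassf2* (9.80 points). Nearest to *Kdr* were *Cdca4* (8.45 points) and *Cav1* (8.82 points), and *Cav1* had a start of 3.06% in KO and 7.31% in WT and a body of 41.0% in KO and 47.7% in WT. Nearest to *Flt4* were *Hdac5* (6.45 points), with a start of 17.9% in KO and 24.5% in WT and a body of 42.8% in KO and 62.1% in WT, and *Fam110a* (7.42 points).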

How the data were processed

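DNA of sorted lung endothelial cells was measured by tagmentation-based bisulfite sequencing, with 30 ng of DNA per sample in 3 libraries and paired reads of 100 bases, according to the labels. BWA 0.7.8 and mm10 are named in the submitters' processing notes. The deposited table gives, per the file headers, the methylation level of each sample in 1 kb tiles as a fraction, which was multiplied to percent. For the methylation caller, coverage filter, smoothing and choice of tiles, the tool or setting is not given in the sources used here. No read counts are given, so depth is unknown, no interval was computed and the precision rests on 3 samples per group.

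All 6 samples entered every fit. Since levels without counts cannot enter a count model, limma 3.58.1 (R 4.3.3) with a variance trend on the mean level was run on all tiles, on the starts of all genes, on all bodies and on start minus body, with Benjamini-Hochberg adjustment within each. Calls needed an adjusted p under 0.05 and 10 points (tiles and starts) or 5 points (bodies). For start minus body the adjusted p alone decided. Single values had two-sided exact permutation tests. A simulation of 100000 tiles with known differences was used to test the fit. Python 3.11.15, numpy 2.4.6 and pandas 2.3.3 did the rest.

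Gene spans, starts and windows came from RefSeq tables of GRCm38.p6, the assembly mm10 names. Of 20665 genes, 16457 have a listed start. The others were left out of start, body and contrast fits, although the design had planned to use the less methylated end for them. Where a gene has several starts, the first in the table was used. No exon annotation was used, so introns were not told from exons. Runs are called tiles with gaps of at most 1 kb.

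The genes, lists and tests were chosen with earlier results of these data known. The text names all 9 genes, with the tile at the start, the tile of largest difference and the run with most called tiles for each, the pathway genes with the 3 smallest p at start and body, and the 2 genes nearest each receptor. Other tiles were added after their values were seen. Alternatives left out each sample, centred or scaled samples, changed the test scale, variance model, minimum difference, flank and start window, or added the replicate number as a block.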

Additional observations from a re-analysis of the deposited data

How the results depend on the processing

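Levels without depth limit all of these results, since the number of reads behind a value is unknown. The median tile difference over the table was -4.05 points as deposited, 0.843 points after centring each sample on its median and 1.42 points after scaling to one mean level. The 440 tiles called lower became 236 after centring (6.64% of all tiles), 242 after scaling (6.58%) and 175 with a 20-point minimum (4.50%). With no flank 291 were called, among fewer tiles. With one sample left out 383 to 413 were called. Calls over all 1954255 tiles then numbered 243872 to 288387, against 316257 with all samples. Tiles called higher were 4 after scaling, against 1.57% of all tiles. The mean difference over the tiles was -7.70 points after centring and -7.76 points after scaling, and lay between -12.9 and -12.3 points with one sample left out. Starts called lower were 1 with a window of 500 bp, and bodies called lower were 5 after centring. The mean of start minus body was -1.30 points after scaling, 9.48 points at 500 bp and -0.438 points at 2000 bp, and lay between 1.67 and 2.93 points with one sample left out. At 500 bp only the Pgf start had a WT level (28.8%) as large as its body loss, so that the other starts could not have lost as much.

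Centring cannot change a start minus body value. Of the other 251 alternatives for 25 single-gene values, 212 kept direction and call, 23 lost the call, 7 gained one and 9 changed sign. Sign changes were the start of Kdr after centring (1.66 points) and at 500 bp (0.785), the start of Nrp1 with one sample left out (-0.568 to 0.624, below 0 without KO replicate 1, and at -0.0831 without WT replicate 1 and -0.314 without WT replicate 3), and the start minus body value of Flt1 (13.7), Vegfa (9.91) and Vegfc (1.02) at 500 bp and of Kdr (-0.371) at 2000 bp. Scaling ended the body calls of Nrp1 (-3.35) and Vegfc (-3.63). At 500 bp the WT start levels of Flt1, Vegfa and Vegfc, at 1.29, 1.38 and 8.62%, were smaller than their body losses. These starts could not have lost as much as the body, so that their start minus body values had to lie above 0. The causes of the other changes were not tested.

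Whether replicate numbers pair the samples was not settled. Deviations of samples with the same number correlated at 0.00563, -0.00321 and 0.0110 across tiles, and 2 of the 3 KO samples correlated best with their own number. Samples with unlike numbers correlated at -0.0104 to 0.00449. Values this close to 0 can neither show nor exclude a pairing. With the replicate number as a block, 444 tiles were lower, the Kdr start minus body call was lost (adjusted p = 0.0510) and that of Vegfc was gained (adjusted p = 0.0406). The other calls were the same.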
